A study of Mus musculus with 8 samples.

Results

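The mitochondrial ribosomal protein genes were taken as all gene symbols in the count table that begin with Mrps or Mrpl and a number, without pseudogene names. There were 78 of them among 24924 genes, 29 named for the small subunit and 49 for the large subunit. Their messenger RNA was measured in 2 cell populations that had been sorted out of the brains of old C57BL/6 mice, 20 to 22 months of age: microglia, which are the resident macrophages of the brain, and T cells found in the brain. Each mouse had been given either interleukin-5 (IL-5), a cytokine best known for its action on eosinophils and B cells, in 2 daily doses of 2 µg, or only the saline vehicle (PBS). Both cell types were sequenced under both treatments with 2 libraries each, so that 4 groups and 8 libraries were compared. The labels name no mouse for a library, so p-values measure the spread between these libraries, which may be technical.

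Mitochondria carry their own ribosome, which translates the few proteins encoded in mitochondrial DNA, all of them parts of the respiratory chain and the ATP synthase. Its ribosomal RNAs come from mitochondrial DNA, while every one of its proteins is encoded in the nucleus, made in the cytosol and imported. Many of these proteins descend from bacterial ribosomal proteins and others exist only in mitochondria, so that the particle has more protein and less RNA than a bacterial ribosome. By general knowledge 45 of the 78 genes encode proteins with a bacterial counterpart and 30 encode proteins found only in mitochondria. Mrps18a and Mrps18b are paralogs of the counterpart Mrps18c, and Mrps36 encodes a component of the alpha-ketoglutarate dehydrogenase complex rather than a ribosomal protein. In structures of the mammalian particle the Mrps18a and Mrps30 proteins sit in the large subunit, against their names.

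Between 23536908 and 30423828 counts per library were assigned to genes. Microglia markers (16 genes) summed to 71646 to 126513 scaled CPM in the microglia libraries and to 78.7 to 145 in the T cell libraries. T cell markers (16 genes) summed to 3939 to 6386 in T cells and to 31.7 to 231 in microglia. Neutrophil markers (10 genes) summed to 16693 to 26315 in microglia against 0.573 to 96.4 in T cells, and choroid plexus markers (10 genes) to 44239.7 to 94355 across both. Scaled CPM are CPM, the usual counts-per-million scale, with the library size corrected by edgeR's TMM factors, which were 0.638 to 0.819 in microglia and 1.27 to 1.32 in T cells. Microglia IL-5 replicate 1 stood apart: it had the lowest factor, 25.5% of its reads outside genes against 15.2% to 19.8% in the others, and the widest scatter of the mitochondrial ribosomal protein genes. The SD of their log2 distance from the other libraries of its cell type was 1.23 there and 0.42 to 0.77 in the other 7. Over all genes tested between T cells and microglia this SD was 1.65 there and 1.04 to 1.46 in the other 7. The library was the widest over all genes too, by a smaller margin than for the members.

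The 78 genes lay on 17 chromosomes, with 11 on chromosome 11, and 33 of them (42.3%) had the start of another coding gene on the opposite strand within 1000 bases, against 10.8% of 22028 coding genes of GENCODE M21 on GRCm38. Mrps11 and Mrpl46 share such a start with each other. Mrps12 faces Sars2, the mitochondrial seryl-tRNA synthetase, and Mrpl36 faces Ndufs6, a subunit of respiratory complex I. The spans of 26 members overlapped another coding gene. The strand setting of the authors' counting is not given in the sources used here, so reads of such partners cannot be told apart. Named pseudogenes exist in the annotation for Mrpl23, Mrpl48 and Mrps36, and reads from them could have been counted for the parent gene.

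Promoters from RefSeq on GRCm38.p6, 250 bases before to 50 after the start, were matched for 69 of the 78 genes. They were searched on both strands for short forms of motifs that regulators of nuclear genes for mitochondrial proteins are known to bind. The NRF1 form, GCGC and TGCGC with any 1 base between them, was in 13 promoters (18.8%), against 10.2% of 11947 promoters of genes tested in T cells against microglia and 5.19% of all 27025 promoters. The ETS form CCGGAAG, recognised by GABP and related factors, was in 26 (37.7%, against 17.9% and 9.93%). The YY1 form AAGATGGC was in 12 (17.4%, against 4.74% and 3.19%). At least 1 of the 3 was in 43 promoters (62.3%, against 28.9% and 16.4%). A match describes the letters and is not evidence of binding. The 5 promoters below belong to members that passed the test between T cells and microglia, 4 because they hold at least 2 of the motifs and Mrpl52 because it had the largest difference. Capitals mark the motif matches, in either orientation. The intervals are chr7:105811038-105811337 (minus strand) for Mrpl17, chr7:28741772-28742071 (minus) for Mrps12, chr3:95871465-95871764 (minus) for Mrps21, chr2:130563507-130563806 (plus) for Mrps26 and chr14:54426659-54426958 (plus) for Mrpl52.
Mrpl17: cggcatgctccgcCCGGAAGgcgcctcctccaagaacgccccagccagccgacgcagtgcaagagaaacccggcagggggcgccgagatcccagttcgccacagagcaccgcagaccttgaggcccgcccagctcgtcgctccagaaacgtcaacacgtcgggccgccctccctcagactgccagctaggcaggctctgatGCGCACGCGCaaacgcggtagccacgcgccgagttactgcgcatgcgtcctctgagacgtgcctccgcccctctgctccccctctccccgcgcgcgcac
Mrps12: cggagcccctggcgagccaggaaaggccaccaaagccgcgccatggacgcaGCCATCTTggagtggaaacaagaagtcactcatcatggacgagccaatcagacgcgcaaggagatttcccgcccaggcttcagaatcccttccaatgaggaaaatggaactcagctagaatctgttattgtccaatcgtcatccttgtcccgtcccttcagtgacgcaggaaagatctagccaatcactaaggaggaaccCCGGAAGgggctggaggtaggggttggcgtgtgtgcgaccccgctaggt
Mrps21: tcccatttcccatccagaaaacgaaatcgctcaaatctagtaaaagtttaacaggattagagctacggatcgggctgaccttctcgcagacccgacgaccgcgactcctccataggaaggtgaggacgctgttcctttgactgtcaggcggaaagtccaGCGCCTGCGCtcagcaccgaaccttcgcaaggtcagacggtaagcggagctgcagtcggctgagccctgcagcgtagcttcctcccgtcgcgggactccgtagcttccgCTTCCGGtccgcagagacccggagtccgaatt
Mrps26: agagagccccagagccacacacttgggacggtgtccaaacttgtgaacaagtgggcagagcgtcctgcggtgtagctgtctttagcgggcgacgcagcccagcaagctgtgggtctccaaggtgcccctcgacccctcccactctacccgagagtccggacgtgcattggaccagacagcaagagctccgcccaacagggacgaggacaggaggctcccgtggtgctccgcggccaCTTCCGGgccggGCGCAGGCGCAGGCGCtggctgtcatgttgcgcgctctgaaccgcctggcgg
Mrpl52: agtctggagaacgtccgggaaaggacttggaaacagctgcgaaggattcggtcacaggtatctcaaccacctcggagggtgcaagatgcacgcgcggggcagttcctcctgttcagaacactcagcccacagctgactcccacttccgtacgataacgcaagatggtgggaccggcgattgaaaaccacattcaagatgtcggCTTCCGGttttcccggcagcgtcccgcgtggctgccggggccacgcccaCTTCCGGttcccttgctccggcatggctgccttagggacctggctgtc
Mrps26 holds an ETS match followed within a few bases by 2 overlapping NRF1 matches at its start. Mrpl52 holds 2 ETS matches, and Mrps12 a YY1 match far upstream with an ETS match just inside the transcript. Members with an ETS match had a median log2 difference between T cells and microglia of -0.88 (11 of 26 called lower in T cells), and those without one of -0.32 (9 of 43). For NRF1 the medians were -0.71 with (3 of 13) and -0.58 without a match (17 of 56), and for YY1 -0.59 with (3 of 12) and -0.59 without (17 of 57). Among all 15397 genes tested 11.4% were called lower in T cells, and their shares by motif were not computed. No test was made of the differences between members with and without a match.

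All 78 members had counts in 6 libraries, and 77 had counts in each IL-5 microglia library. They took 0.440% to 0.572% of the gene counts of a library, and the small subunit genes supplied 31.8% to 39.8% of that. The median member lay at 52.3 and 61.1 scaled CPM in PBS microglia, 57.0 and 68.4 in IL-5 microglia, 50.4 and 45.8 in PBS T cells, and 46.9 and 48.9 in IL-5 T cells. On this scale the microglia values were all above the T cell values, and without the TMM factors they were all below them. By library size only, the microglia medians were 42.2, 49.7, 36.4 and 56.1 CPM, and those of the T cells were 66.5, 60.0, 59.5 and 64.7. The median of the small subunit genes lay between 51.8 and 67.3 in microglia and between 36.5 and 46.1 in T cells, in scaled CPM. That of the large subunit genes lay between 52.7 and 69.5 in microglia and between 47.2 and 52.7 in T cells.

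**Figure D1:**
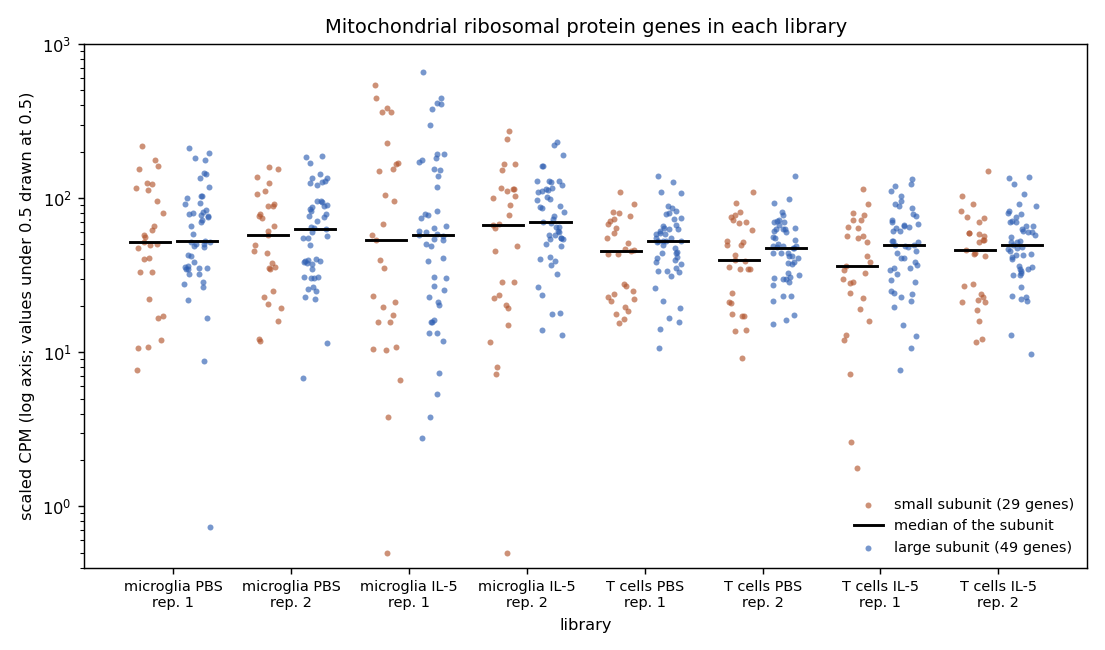
Scaled CPM on a log axis of each of the 29 small subunit and 49 large subunit genes (points) in each of the 8 libraries, with the median of each subunit as a bar. The medians lie between 36.5 and 69.5, and the points of microglia IL-5 replicate 1 spread from 0 to 662, wider than in any other library.

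Levels of different genes were compared per kilobase of transcript. The highest large subunit gene was Mrpl33, at 476 scaled CPM per kilobase over the 8 libraries, followed by Mrpl52 (378), Mrpl20 (212) and Mrpl42 (187). Mrpl33 and Mrpl20 encode proteins with bacterial counterparts, bL33 and bL20, whereas Mrpl52 and Mrpl42 are found only in mitochondria. Among small subunit genes Mrps21 was highest (300.4), then Mrps6 (206), Mrps18c (187) and Mrps12 (141). The Mrps6 and Mrps18c proteins are neighbours in the ribosome, and Mrps12 forms part of the decoding centre, where the codon is read. The lowest were Mrpl47 (3.64), Mrpl19 (3.90), Mrps5 (5.35) and Mrps27 (5.48), a pentatricopeptide repeat protein of the small subunit. The order differed between the cell types: in T cells Mrpl42 (167) lay above Mrpl52 (154) and Mrpl20 (96.2), and in microglia Mrpl52 (601) and Mrpl20 (328) lay above Mrpl42 (208). The lowest gene was Mrpl47 in T cells (3.21) and Mrpl19 in microglia (2.23). The Mrpl33 and Mrps6 spans overlap Rbks and Slc5a3, and those of Mrpl47 and Mrpl19 overlap Actl6a and Gcfc2. Per kilobase of coding sequence the order was different: Mrpl33 stayed first and Mrps21 moved to second, ahead of Mrps14, Mrps6 and Mrpl52.

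T cells were compared with microglia over all 8 libraries to describe how the cell types differ. Of the 78 genes, 22 (28.2%) were lower in T cells and 2 were higher by edgeR's quasi-likelihood test at an adjusted p of 0.05, against 11.4% lower and 8.05% higher among the 15397 genes tested. The median log2 difference of the members was -0.58, and that of all genes tested 0.17. With scaling by library size only, the median of the members turned to 0.18 and that of all genes rose to 0.91, with 3 members called lower and 7 higher (5.64% and 18.1% of all genes), so the difference relative to all genes was -0.75 and -0.73 under the 2 scalings. In 32 members every T cell library lay below every microglia library and in 7 every one lay above, against 15.6% and 13.9% of all genes. In bulk libraries, fewer cells that express a gene and less RNA per cell cannot be told apart. The microglia libraries also carried the neutrophil markers given above, and their part in these differences was not tested.

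The small subunit genes had a median of -0.87, with 10 of 29 lower and 2 higher. The large subunit genes had a median of -0.37, with 12 of 49 lower and 0 higher (18 lower and 2 higher at an unadjusted p of 0.05). Genes with a bacterial counterpart had a median of -0.60 (16 of 45 lower), and genes found only in mitochondria of -0.27 (6 lower and 2 higher of 30). The difference between these classes was not tested. At an unadjusted p of 0.05, 32 of the 78 were lower and 4 higher, against 17.6% and 16.3% of all genes. DESeq2 called 32 lower and 3 higher, against 16.6% and 14.0%, and with transcript length offsets 11 were lower and 3 higher, against 9.72% and 5.95%. Only 6 of these 11 were among the genes called lower without offsets. The 3 higher were Mrpl30, Mrpl28 and Mrpl21, of which 0 were called higher without offsets. Mrpl52 moved to -0.16 with these offsets (edgeR adjusted p = 0.748) and Mrpl14 to -0.38 (edgeR adjusted p = 0.356).

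**Figure D2:**
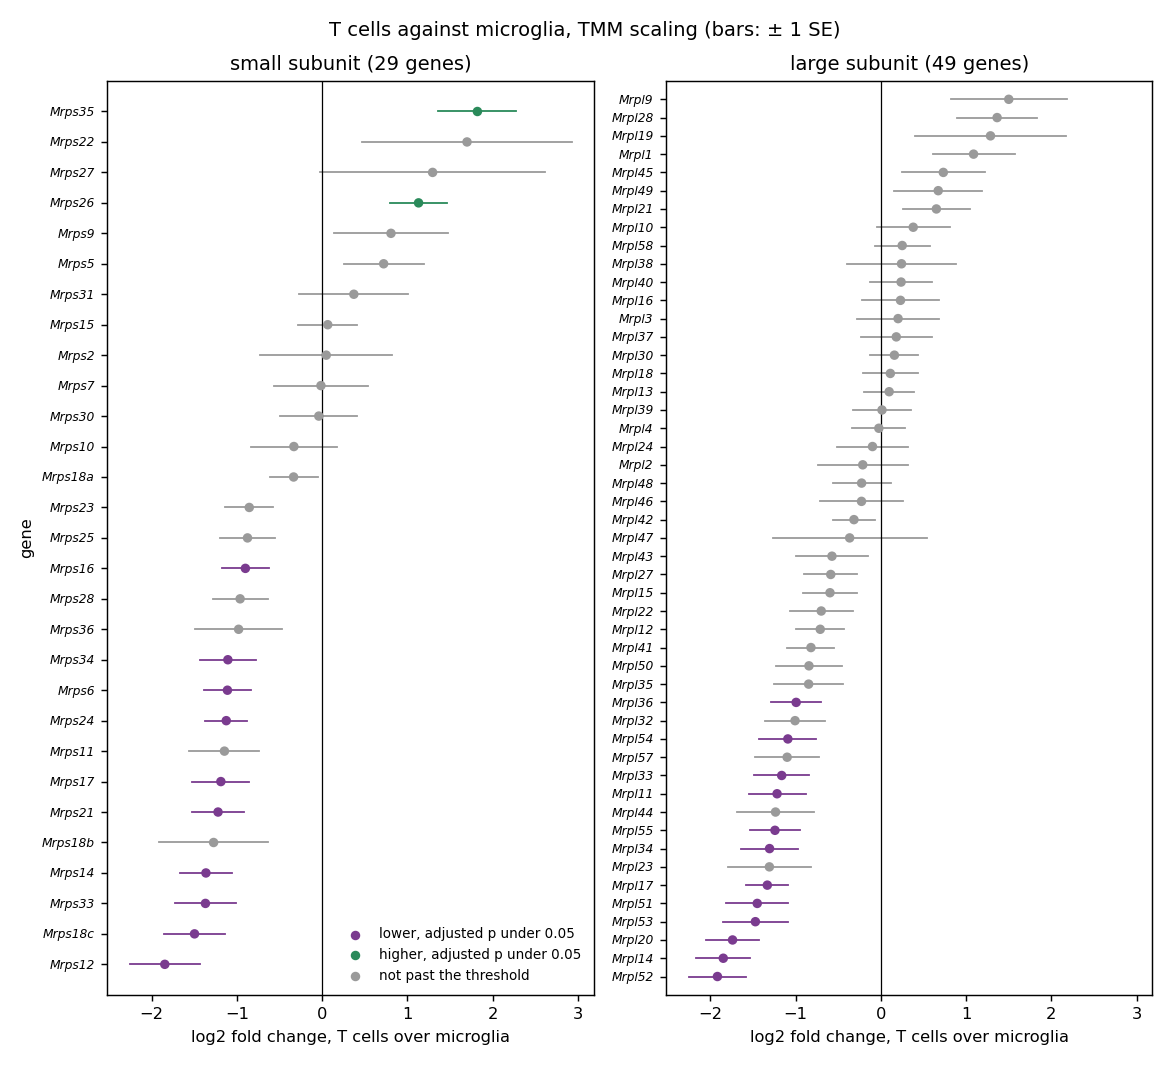
Log2 fold change of T cells over microglia with its standard error for each small subunit gene (left) and large subunit gene (right), in order of size. The 22 genes called lower reach from -0.90 (Mrps16) to -1.92 (Mrpl52), and Mrps35 and Mrps26 are the 2 called higher.

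Mrpl52, a protein of the large subunit found only in mitochondria, measured 181 and 187 scaled CPM in PBS microglia, 446 and 191 in IL-5 microglia, 52.7 and 81.0 in PBS T cells and 51.6 and 71.5 in IL-5 T cells. The cell types did not overlap, and IL-5 microglia replicate 1 held the highest value. Its log2 difference was -1.92 (SE 0.33, edgeR adjusted p = 0.00411) and stayed at -1.61 without that library (adjusted p = 0.00306).

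Mrpl14, whose protein lies on the face of the large subunit that meets the small one, measured 100.2, 95.6, 299 and 129.6 scaled CPM in microglia (PBS, then IL-5) and 33.7, 29.8, 49.5 and 52.4 in T cells. All T cell values were below all microglia values, with a log2 difference of -1.85 (SE 0.32, edgeR adjusted p = 0.00407). Its span overlaps Tmem63b. Mrpl20, needed in bacteria for an early step of large subunit assembly, measured 197, 169.5, 417 and 220.0 in microglia and 49.7, 70.3, 67.6 and 106 in T cells (log2 difference -1.74, SE 0.31, edgeR adjusted p = 0.00450). Mrpl53, found only in mitochondria, measured 70.3, 76.9, 172 and 80.9 in microglia and 38.4, 27.5, 23.7 and 49.8 in T cells. Its log2 difference was -1.47 (SE 0.39, edgeR adjusted p = 0.0262). The call for Mrpl53 was lost without microglia IL-5 replicate 1 (-1.20, adjusted p = 0.0611), and also without microglia PBS replicate 2 (adjusted p = 0.0504), T cells PBS replicate 2 (0.0786) or T cells IL-5 replicate 1 (0.0885).

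In the small subunit, Mrps12 measured 123, 111, 444 and 114 scaled CPM in microglia and 59.2, 49.7, 36.5 and 56.4 in T cells. The first IL-5 microglia library was again far above the other 3, which agreed closely with each other. The log2 difference was -1.84 (SE 0.41, edgeR adjusted p = 0.0137), and -1.26 without that library (adjusted p = 0.0166). Mrps18c measured 116, 88.7, 361 and 153 in microglia and 80.8, 62.2, 32.7 and 59.7 in T cells, a log2 difference of -1.50 (SE 0.35, edgeR adjusted p = 0.0172). It missed the threshold without T cells IL-5 replicate 1 (-1.31, adjusted p = 0.0626) and without T cells PBS replicate 2 (-1.41, adjusted p = 0.0546). The start of its divergent neighbour Helq, a DNA helicase gene, lies 29 bases away.

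The 2 paralogs of Mrps18c did not pass. Mrps18b measured 49.9, 49.6, 23.2 and 28.4 in microglia and 19.5, 17.7, 2.61 and 21.0 in T cells, where the first IL-5 library was low (log2 difference -1.27, SE 0.64, edgeR adjusted p = 0.195). It passed without T cells IL-5 replicate 2 (-2.36, adjusted p = 0.0294). Mrps18a measured 114, 88.3, 67.9 and 111 in microglia and 76.5, 78.1, 72.6 and 74.4 in T cells, with a log2 difference of -0.33 (SE 0.28, edgeR adjusted p = 0.446). For Mrps18a the values in T cells lay close together, inside the range of the microglia libraries.

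Both genes that were higher in T cells encode small subunit proteins found only in mitochondria. Mrps35 measured 12.1, 35.7, 10.3 and 11.6 scaled CPM in microglia and 63.7, 68.9, 56.7 and 42.0 in T cells. Every T cell library was above every microglia library (log2 difference 1.82, SE 0.46, edgeR adjusted p = 0.0222). Mrps26 measured 40.1, 37.8, 19.7 and 20.1 in microglia and 68.1, 75.9, 51.8 and 51.5 in T cells (log2 difference 1.13, SE 0.33, edgeR adjusted p = 0.0408). Mrps26 missed the threshold whichever library was left out (1.02 to 1.17, adjusted p from 0.0542 to 0.197). Mrps35 missed it without T cells IL-5 replicate 1 (adjusted p = 0.0692), T cells PBS replicate 1 (0.0519), T cells PBS replicate 2 (0.0576) or microglia PBS replicate 1 (0.0828). Further genes with positive values did not pass: Mrpl28 at 1.36 (adjusted p = 0.0746), Mrpl1, a protein of the mobile L1 stalk, at 1.09 (adjusted p = 0.146), Mrpl9 at 1.50 (adjusted p = 0.154) and Mrpl21 at 0.65 (adjusted p = 0.275). Mrpl9 passed without microglia IL-5 replicate 2 (2.71, adjusted p = 0.00640).

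**Figure D3:**
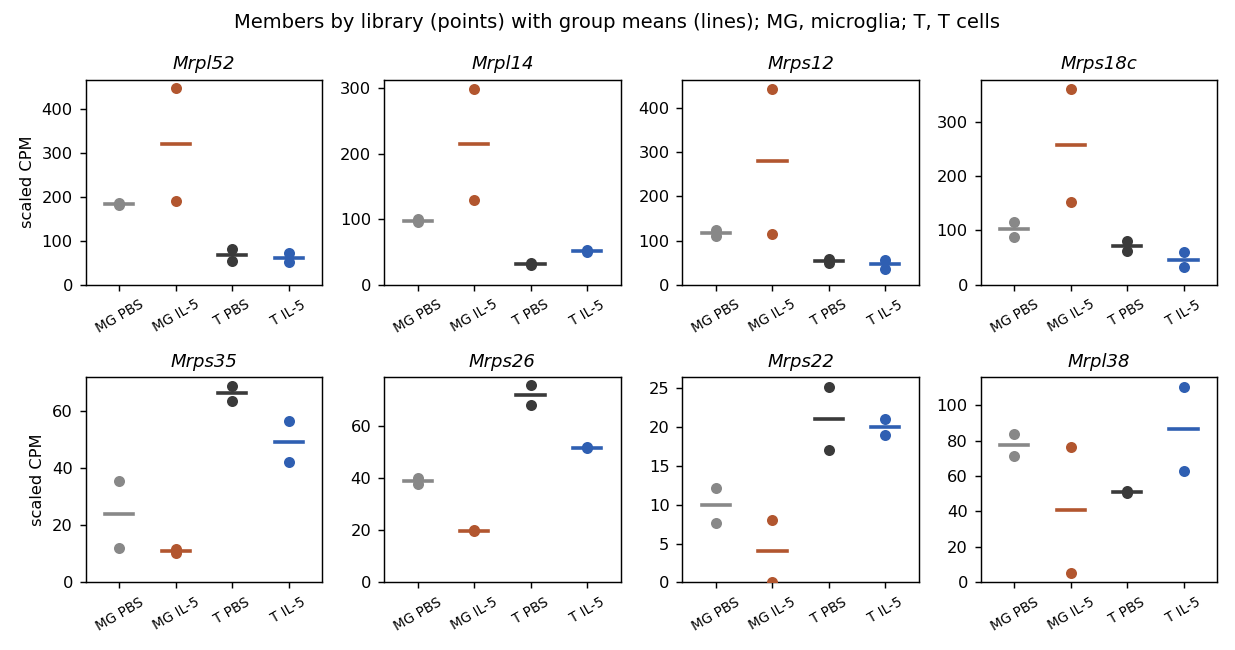
Scaled CPM of 8 genes in each library (points) with the mean of each group of 2 (line); MG stands for microglia and T for T cells. Mrpl52, Mrpl14, Mrps12 and Mrps18c have their highest point in microglia IL-5 replicate 1, Mrps35 and Mrps26 are higher in all T cell libraries, and microglia IL-5 replicate 1 has the lowest value of Mrps22 (0) and of Mrpl38 (5.39).

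Genes around 3 working sites of the large subunit were also compared; apart from Mrpl12 and Mrpl3 they were picked by site after their values were seen. At the base and arm of the flexible stalk that recruits translation factors, Mrpl11 was lower in T cells (log2 difference -1.22, SE 0.33, edgeR adjusted p = 0.0312), a call lost in 5 of 8 fits that left out 1 library, namely any T cell library or microglia PBS replicate 2 (highest adjusted p = 0.115). Mrpl12 (-0.71, adjusted p = 0.109) and Mrpl10 (0.38, adjusted p = 0.581) did not pass in the fit of all libraries. Mrpl12 measured 104, 94.6, 77.5 and 115 scaled CPM in microglia and 58.6, 48.6, 63.6 and 69.6 in T cells, without overlap, and passed without microglia IL-5 replicate 1 (-0.90, adjusted p = 0.0414). Along the exit of the peptide tunnel, Mrpl17 was lower (-1.33, SE 0.25, edgeR adjusted p = 0.00567), with 176, 135, 154 and 161 in microglia and 59.0, 62.8, 65.5 and 61.4 in T cells. Its 4 microglia values were all well above its 4 T cell values, and its call was kept in all 8 fits that left out 1 library. Of the 22 genes called lower, 6 were kept in all 8 of these fits: Mrpl52, Mrpl14, Mrps12, Mrpl20, Mrpl17 and Mrps14. Mrpl22 (-0.70, adjusted p = 0.217), Mrpl23 (-1.31, adjusted p = 0.0944), Mrpl24 (-0.10, adjusted p = 0.918), Mrpl45, which holds the ribosome at the inner membrane (0.73, adjusted p = 0.325), and Mrpl47 (-0.37, adjusted p = 0.834) did not pass.

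Mrpl3, a protein that reaches toward the site of peptide bond formation, measured 36.1, 63.3, 16.2 and 57.4 in microglia and 80.4, 56.3, 25.1 and 45.6 in T cells, with the groups overlapping (0.20, adjusted p = 0.826). Mrpl44, related to ribonuclease III, measured 35.5, 65.1, 39.1 and 54.0 in microglia and 21.5, 30.9, 10.6 and 21.6 in T cells (-1.24, SE 0.45, edgeR adjusted p = 0.0893). Its values did not overlap but missed the threshold. Mrps15, a binder of small subunit RNA, overlapped between the cell types, at 57.9, 76.2, 39.8 and 68.2 against 72.7, 39.7, 71.6 and 69.7 (0.07, SE 0.35). Mrpl58, a release factor relative that frees stalled peptides, gave 0.25 (SE 0.32, edgeR adjusted p = 0.640).

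The size of the difference between T cells and microglia followed the length of the coding sequence. Of 24 members with up to 450 coding bases 18 were called lower, with a median log2 difference of -1.23. In the next class, 451 to 600 bases, 3 of 17 were lower and 1 higher (median -0.85), from 601 to 900 bases 1 of 22 was lower (median -0.02), and above 900 bases 0 of 15 were lower and 1 was higher (median 0.37). All coding genes tested had medians in these classes of -1.22, -0.71, -0.33 and 0.57, with 37.7%, 28.0%, 18.3% and 6.46% called lower. Spearman's rho between coding length and log2 difference was 0.72 across the 78 members and 0.34 across 14231 coding genes. Genes of a library share its RNA and its preparation and are not independent points. The rho of the members was 0.61 without microglia IL-5 replicate 1 and 0.61 in the PBS groups alone.

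After each library was adjusted by a smooth trend on coding length, chosen after seeing the data, 0 members were lower and 4 were higher, against 8.76% and 5.13% of all genes (6 lower and 13 higher at an unadjusted p of 0.05, against 16.2% and 12.6%). The 4 were Mrps35 (1.89, adjusted p = 0.0268), Mrps26 (1.75, adjusted p = 0.00837), Mrpl28 (1.79, adjusted p = 0.0256) and Mrpl30 (1.00, adjusted p = 0.0459). The median of the members turned to 0.16, and Mrpl52, Mrpl14 and Mrps12 moved to -0.79, -0.88 and -0.83, none past the threshold. Spearman's rho between coding length and log2 difference was then 0.0044 over all coding genes but still 0.31 over the members. The adjustment also takes out any difference between the cells that goes with length. Which of the 2 accounts for the pattern was not tested.

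**Figure D4:**
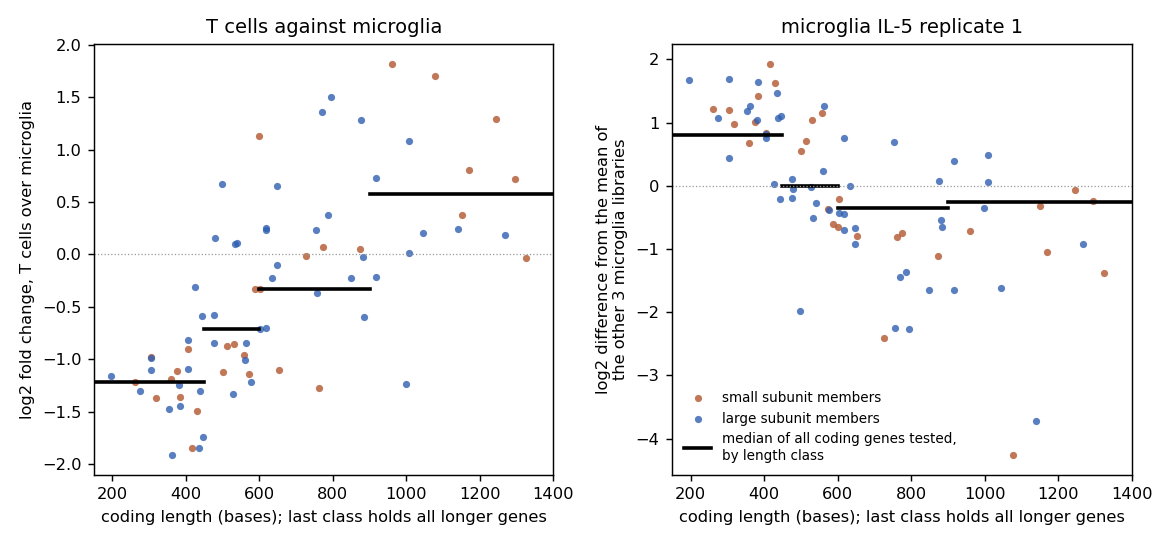
Left, log2 difference of T cells over microglia against coding length for each member; right, log2 difference of microglia IL-5 replicate 1 from the mean of the other 3 microglia libraries; black bars are the medians of all coding genes tested in the same length class. The members rise with length on the left (medians -1.23 to 0.37) and fall on the right (medians 1.09 to -0.71).

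The same length pattern set microglia IL-5 replicate 1 apart from the other microglia libraries. Of the 24 shortest members 23 were above the mean of the other 3 libraries, with a median of 1.09 on the log2 scale. The medians of the longer classes were -0.05, -0.72 and -0.71. Over all coding genes they were 0.81, 0, -0.36 and -0.25. Spearman's rho with coding length was -0.73 over the members in that library, and between -0.32 and 0.70 in the other 7. Over all coding genes tested it was 0.038 in that library and between -0.073 and 0.069 in the other 7. The distances of the other microglia libraries were taken from means that include replicate 1 of IL-5, so their rho depends on it.

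**Figure D5:**
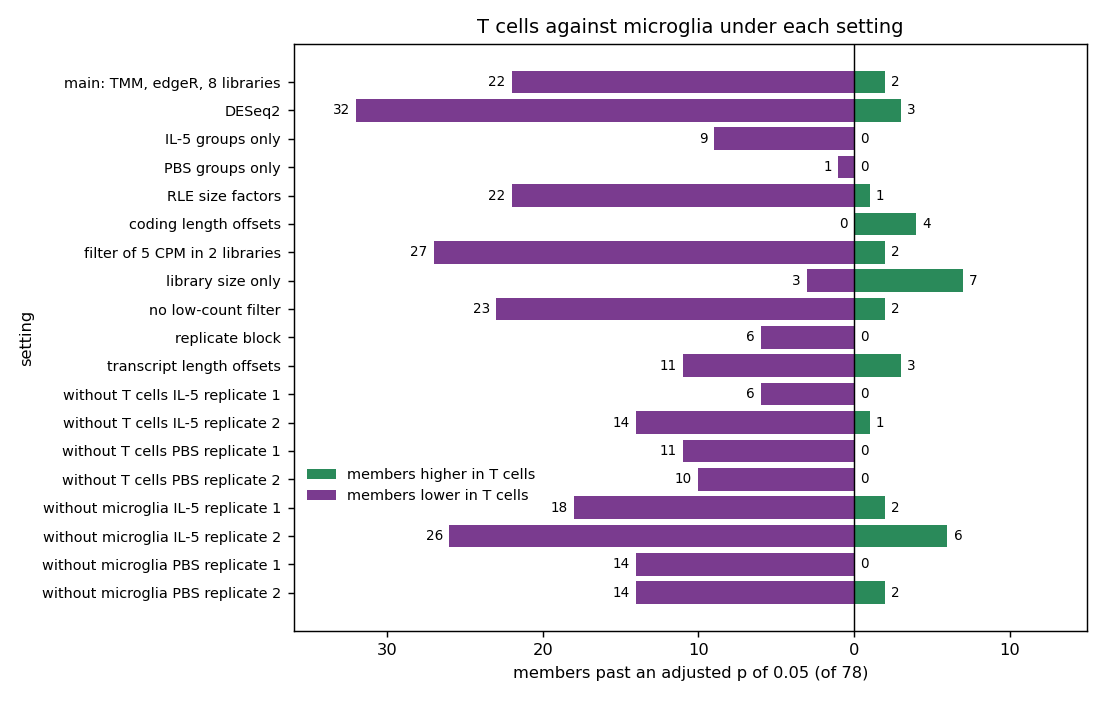
Number of the 78 members called lower (left bars) and higher (right bars) in T cells under each setting at an adjusted p of 0.05. The lower calls range from 0 with coding length offsets to 32 with DESeq2, and from 6 to 26 when 1 library is left out.

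In microglia, IL-5 was compared with PBS to ask whether the cytokine moved these genes. By edgeR 0 of 78 passed in either direction, as did 0.0% of the 13764 genes tested; 5 members were higher and 0 lower at an unadjusted p of 0.05, against 1.79% and 2.7% of all genes. DESeq2 called 0 members as well, against 0.131% of all genes higher and 0.356% lower. Unadjusted it had 10 members higher and 0 lower, against 4.21% and 3.82%. The median log2 change of the members was 0.07, and that of all genes -0.02. In 25 members both IL-5 libraries were above both PBS libraries and in 10 both were below, against 17.8% and 20.6% of all genes. Of those with no overlap, 15 higher and 1 lower were large subunit genes, and 10 higher and 9 lower were small subunit genes.

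The smallest p-values among positive changes belonged to Mrps6, Mrps18c, Mrps23 and Mrpl35. Mrps6 measured 155 and 159.5 scaled CPM after PBS and 382 and 271 after IL-5 (log2 change 1.04, SE 0.39, edgeR adjusted p = 0.964, unadjusted p = 0.0340). Mrps18c went from 116 and 88.7 to 361 and 153 (1.32, SE 0.52, edgeR adjusted p = 0.964). Mrps23, a mitochondria-specific protein, measured 61.8 and 74.7 after PBS and 167 and 115 after IL-5 (1.04, SE 0.42, edgeR adjusted p = 0.964), and Mrpl35 42.5 and 39.6 against 118 and 69.5 (1.18, SE 0.48, edgeR adjusted p = 0.964). All 4 were higher in both IL-5 libraries, most of all in replicate 1.

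Among negative changes the smallest p-values were those of Mrps2, Mrps18b, Mrps26 and Mrps35. Mrps2 measured 50.1 and 34.8 after PBS and 15.8 and 23.6 after IL-5 (-1.12, SE 0.61, edgeR adjusted p = 0.964). Mrps26 measured 40.1 and 37.8 against 19.7 and 20.1 (-0.98, SE 0.59, edgeR adjusted p = 0.974), with close replicates in both groups. Mrps18b gave -0.96 (SE 0.53, edgeR adjusted p = 0.964) and Mrps35 -1.13 (SE 0.89, edgeR adjusted p = 0.984).

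The IL-5 replicates of microglia did not agree on this gene family. Replicate 1 lay above the mean of the PBS libraries by a median of 1.25 on the log2 scale in the members of up to 450 coding bases and below it by -0.75 in those over 900 bases. For replicate 2 these medians were 0.22 and -0.01. All coding genes tested split in the same way, with medians of 0.86 and -0.24 for replicate 1 and of 0.22 and -0.05 for replicate 2. When replicate 2 was left out, so that replicate 1 stood for IL-5, 12 members (15.4%) were called higher and 1 (Mrpl38, 1.28%) lower, against 3.57% and 4.85% of all genes, and when replicate 1 was left out 0 were called in either direction. Choroid plexus markers summed to 44239.7 and 53632.5 in PBS microglia and 78233 and 94355 after IL-5, and B cell markers (7 genes) to 157 to 221 and 381 to 408. Their part in these values was not tested.

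In T cells, 0 of 78 members passed after IL-5 by edgeR, as did 0.0% of 13897 genes tested; 1 was higher and 0 lower at an unadjusted p of 0.05, against 2.55% and 1.76% of all genes. The median was 0.04 for the members and -0.01 for all genes. In 16 members both IL-5 libraries were above both PBS libraries and in 19 both were below, against 17.1% and 18.6% of all genes. Mrps25, a mitochondria-specific small subunit protein, had the smallest p. It measured 24.0 and 21.1 scaled CPM after PBS and 64.4 and 53.3 after IL-5, with both IL-5 libraries above both PBS libraries (1.40, SE 0.44, edgeR adjusted p = 0.9999, unadjusted p = 0.0181). DESeq2 called Mrps25 higher (adjusted p = 0.00196), as it did 2.9% of all genes, and 0 members lower, against 1.83%. Unadjusted, DESeq2 had 5 members higher and 2 lower, against 7.67% and 6.78%. In microglia Mrps25 measured 56.2 and 35.4 after PBS and 95.3 and 99.7 after IL-5 (1.08, SE 0.46, edgeR adjusted p = 0.964). Its span overlaps Nr2c2. Choroid plexus markers summed to 45371 and 64012 in PBS T cells and to 88327 and 89676 after IL-5, and B cell markers to 94.8 to 196 and 167 to 226. Their part in the T cell values was not tested.

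Other positive changes in T cells were Mrpl38 (0.78, SE 0.39), from 51.8 and 50.7 to 110.4 and 62.8, Mrpl50 (1.08, SE 0.56), from 14.1 and 23.0 to 44.3 and 32.9, and Mrpl16 (0.88, SE 0.49), from 19.3 and 31.9 to 49.0 and 43.5. Negative changes were Mrpl3 (-0.92, SE 0.48), from 80.4 and 56.3 to 25.1 and 45.6, Mrps30 (-0.82, SE 0.45), from 51.1 and 51.6 to 34.4 and 22.9, Mrpl11 (-0.77, SE 0.48) and Mrps26 (-0.45, SE 0.34). None passed, and edgeR gave each an adjusted p of 0.9999. Mrps26 and Mrps35, the genes higher in T cells than in microglia, had both IL-5 libraries below both PBS libraries in each cell type, without passing the test.

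The difference between the IL-5 responses of T cells and microglia was tested as an interaction over the 8 libraries. By edgeR 0 members passed, as did 0.0% of 15397 genes, and at an unadjusted p of 0.05 there were 0 higher and 1 lower, against 3.22% and 1.96% of all genes. DESeq2 called 0 members, against 0.844% of all genes higher and 0.331% lower, and had 0 higher and 2 lower unadjusted, against 4.92% and 3.29%. The median of the members was -0.17 (T cells minus microglia), and that of all genes 0.03. Mrps18c had the smallest p, with a difference of -1.96 (edgeR adjusted p = 0.904): its change was 1.32 in microglia and -0.60 in T cells. Next came Mrpl35 (-1.83), Mrpl34 (-1.37) and Mrpl33 (-1.29), each with an edgeR adjusted p of 0.904. The most positive by p were Mrps34, Mrpl38, Mrpl21 and Mrpl28, at 1.07, 1.67, 0.82 and 0.97, with edgeR adjusted p from 0.914 to 0.973. Without microglia IL-5 replicate 2, Mrpl38 was called higher (4.57, adjusted p = 0.0299) and Mrpl33 lower (-1.88, adjusted p = 0.0464).

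Some members differed more between replicates than between groups. A gap above 1 on the log2 scale was found in 28 members between the IL-5 replicates of microglia, against 4 in PBS microglia, 2 in PBS T cells and 6 in IL-5 T cells. The share of all genes with such a gap was not computed. Mrps2, a protein that helps receive the messenger RNA, measured 1.77 in 1 IL-5 T cell library and 44.3 in the other, while the PBS libraries held 43.1 and 34.6. Mrpl19 measured 0.732 and 22.7 in the PBS microglia libraries. Mrps22, a mitochondria-specific protein of the small subunit, had 0 counts in microglia IL-5 replicate 1, which allows up to 3 counts, or 0.127 CPM, and 8.07 scaled CPM in replicate 2. Mrps27 had 0 counts in microglia IL-5 replicate 2 (up to 0.110 CPM) and 3.79 scaled CPM in replicate 1. Its difference between T cells and microglia was 1.30 (edgeR adjusted p = 0.537), and the values of PBS microglia, 10.8 and 15.8, lay inside the T cell range of 7.17 to 22.2. These limits cover counting error only. Mrpl38, a protein of the central protuberance, measured 5.39 and 76.6 after IL-5 in microglia, and Mrpl9 3.79 and 41.6. The log2 changes of these 6 genes after IL-5 in microglia had standard errors of up to 2.21.

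Other genes of mitochondrial translation were compared in the same fit of T cells against microglia. Of 5 mitoribosomal proteins with other symbols, 1 was lower: Chchd1, with 109, 110.5, 245 and 122 scaled CPM in microglia and 36.1, 50.2, 43.4 and 45.4 in T cells (-1.70, SE 0.31, edgeR adjusted p = 0.00538). Its call was lost with coding length offsets (-0.55, adjusted p = 0.210) and with library size only (-0.90, adjusted p = 0.0550). Dap3, the small subunit protein that binds GTP, gave 1.02 and did not pass (adjusted p = 0.0978). Of 12 translation factors 0 were called (2 higher and 0 lower at an unadjusted p of 0.05), with a median of 0.35. Gfm1, the elongation factor G of mitochondria, gave 2.17 (adjusted p = 0.0754), and Mrrf, the ribosome recycling factor, 1.87 (adjusted p = 0.131). With library size only, Dap3, Gfm1 and Mrrf passed as higher (edgeR adjusted p = 0.0131, 0.0277 and 0.0374), as did 18.1% of all genes. Gfm2 gave -1.07 (edgeR adjusted p = 0.158) and passed as lower with coding length offsets (-1.97, edgeR adjusted p = 0.0286).

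Of 26 assembly factors 2 were higher and 1 lower in T cells, beside the 8.05% and 11.4% of all genes given above. Dhx30, an RNA helicase, measured 8.18, 28.0, 15.8 and 22.3 in microglia and 61.6, 62.7, 78.0 and 54.5 in T cells (1.79, SE 0.47, edgeR adjusted p = 0.0269). Gtpbp10, a GTPase of large subunit assembly, was at 0 in both IL-5 microglia libraries and between 2.89 and 9.12 elsewhere (adjusted p = 0.0445). Mpv17l2, an inner membrane protein tied to ribosome assembly, measured 99.2 to 149 in microglia and 19.0 to 63.5 in T cells (-1.71, SE 0.35, edgeR adjusted p = 0.00868). With coding length offsets none of the 3 passed: Dhx30 moved to 0.81 (adjusted p = 0.298), Mpv17l2 to -1.09 (adjusted p = 0.0784), and Gtpbp10 had an adjusted p of 0.0596. Mpv17l2 also missed the threshold with library size only (-0.94, adjusted p = 0.0808).

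Of 17 mitochondrial aminoacyl-tRNA synthetases 1 was higher (Pars2, adjusted p = 0.0283, with 0 counts in both IL-5 microglia libraries) and 0 were lower. The median was 1.13, and Iars2, the next by p, gave 1.67 (adjusted p = 0.0570). Pars2 also passed with coding length offsets (edgeR adjusted p = 0.0410). Lars2 gave -1.28 (edgeR adjusted p = 0.0653) and passed as lower with these offsets (-2.24, edgeR adjusted p = 0.00632). Of 16 genes of mitochondrial DNA transcription and RNA stability 1 was higher and 3 were lower, among them Ssbp1, the single-stranded DNA binding protein (-2.08, SE 0.35, edgeR adjusted p = 0.00383), and Slirp, which stabilises mitochondrial messenger RNA (-2.08, SE 0.42, edgeR adjusted p = 0.00842). With coding length offsets Slirp moved to -0.84 and lost its call (adjusted p = 0.132), while Ssbp1 passed at -1.16 (adjusted p = 0.0341). Fastk, also called lower (-1.01, edgeR adjusted p = 0.0368), moved to -1.55 with them (edgeR adjusted p = 0.00641). With library size only Fastk moved to -0.25 and lost its call (edgeR adjusted p = 0.587). Ssbp1 (-1.28, edgeR adjusted p = 0.0290) and Slirp (-1.27, edgeR adjusted p = 0.0437) kept theirs in that setting. Pnpt1, the gene called higher, moved from 1.87 to 1.04 and lost its call (edgeR adjusted p = 0.227). Of 9 regulators of mitochondrial biogenesis 1 was higher, Myc (1.50, SE 0.39, edgeR adjusted p = 0.0262), which missed the threshold with coding length offsets (1.20, adjusted p = 0.0735). Nrf1, which encodes the factor of the NRF1 motif, gave 1.51 (adjusted p = 0.237).

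Larger families of short genes gave the following beside the 78 members. Nuclear-encoded respiratory chain subunits, whose partners the mitochondrial ribosome makes, had 55 of 81 lower and 4 higher with a median of -1.29, and a median coding length of 423 bases against 582 for the members. Cytosolic ribosomal protein genes had 15 of 79 lower and 12 higher with a median of -0.41 and a median coding length of 453 bases. Among all genes tested 11.4% were lower and 8.05% higher. With coding length offsets these families had 6 lower and 2 higher (median -0.19) and 2 lower and 27 higher (median 0.55), beside 0 lower and 4 higher for the members (median 0.16). The shares of all genes were then 8.76% lower and 5.13% higher. The translation factors and the synthetases, which had positive medians, had median coding lengths of 1318.5 and 1656 bases. Some long genes in these lists had negative values, such as Gfm2 (2337 bases, -1.07) and Lars2 (2706 bases, -1.28), neither past the threshold. Whether length accounts for the sign of a list was not tested.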

How the data were processed

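RNA from 8 libraries, 2 in each of 4 groups, was sequenced. The authors deposited whole-number read counts per gene symbol; per the submitters' processing notes the reads were handled on builds mm10 and GRCm38 with tools listed as STAR 2.5.3a (an aligner), Cufflinks 2.0, DESeq2 1.1, FastQC 1.0.0 and bcl2fastq 2.20.0.422, and the counting tool and strand setting are not given in the sources used here. Of 24953 rows, 2 summary rows (reads outside genes, 15.2% to 25.5%, and ambiguous reads, 1.39% to 1.77%) and 27 genes with unreadable cells were left out, 26 of them with date-like names and 0 of them members. Symbols were matched to GENCODE M21 for 97.9% of the genes.

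Counts were tested with edgeR 4.0.16 in R 4.3.3 (TMM factors, filterByExpr with a minimum count of 10, robust quasi-likelihood test, Benjamini-Hochberg adjustment over all genes tested, threshold 0.05): IL-5 against PBS in each cell type on its 4 libraries, and T cells against microglia and the interaction on all 8. Standard errors were derived from the test statistic. Alternatives were DESeq2 1.42.0, RLE factors, library size only, other filters, a replicate block, length offsets, single treatments, a joint fit and leaving out each library. Coding length offsets were a lowess trend (span 0.3) over genes with a mean of at least 1 CPM. Distances of a library from others used a pseudocount of 0.5 scaled CPM. The code was tested on simulated data in which 200 randomly drawn genes were changed by a known fold. With a low simulated spread between libraries 100% of 2-fold changes were recovered. At the observed spread 0% of them were. Of 4-fold changes, 5.97% were recovered after IL-5 in microglia, 17.9% after IL-5 in T cells and 34.3% between the cell types. These rates hold for genes drawn from all genes above a CPM limit and were not computed for the members. In the data 2993 genes were called between the cell types, far more than the 200 changed in the simulation. The members called lower there had log2 differences of only -0.90 to -1.92. A lack of calls does not exclude changes of the simulated size. Depth of 23536908 to 30423828 counts sets a floor of 3 counts at 0.0986 to 0.127 CPM.

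Genes named with values were the highest and lowest per kilobase, the strongest in each comparison and direction, those with the widest replicate gaps, a fixed set, and the leading genes of each other list. The members and lists were chosen with earlier results of these data known.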

Additional observations from a re-analysis of the deposited data

Results flagged for a closer look

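In 6 members both IL-5 libraries lay on 1 side of both PBS libraries in microglia and on the opposite side in T cells. In Mrps18c, Mrpl35, Mrpl22 and Mrpl33 they were above in microglia and below in T cells, and the log2 change in T cells minus that in microglia was -1.96, -1.83, -1.35 and -1.29. In Mrps34 and Mrpl43 they were below in microglia and above in T cells, with differences of 1.07 and 0.73. The difference itself was tested as an interaction with edgeR and none of the 6 passed, with an adjusted p of 0.904 for the first 4, 0.914 for Mrps34 and 0.994 for Mrpl43. Of all genes tested, 17.8% had both IL-5 libraries above and 20.6% below both PBS libraries in microglia, and 17.1% and 18.6% in T cells. The share of all genes with opposite sides was not counted. Other members were on the same side in both cell types: Mrps23, Mrpl39, Mrpl14, Mrpl50, Mrps33 and Mrps25 above, and Mrps10, Mrps26 and Mrps35 below.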

How the results depend on the processing

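In T cells against microglia, 22 members were called lower and 2 higher with a median of -0.58. The counts were 0 lower and 4 higher with coding length offsets (median 0.16), 3 and 7 with library size only (median 0.18), 11 and 3 with transcript length offsets (median 0.13), 1 and 0 in the PBS groups (median -0.38, with 1.28% of members and 4.60% of all genes lower), 9 and 0 in the IL-5 groups (11.5% and 5.73% lower), and 22 and 1 with RLE factors. DESeq2 called 32 lower and 3 higher. Of the 11 lower with transcript length offsets only 6 were among the 22, and of the 3 higher 0 were among the 2. Leaving out 1 library gave 6 to 26 lower and 0 to 6 higher, the lowest without T cells IL-5 replicate 1 (7.69% of members and 7.45% of all genes lower) and the highest without microglia IL-5 replicate 2 (33.3% and 11.5%).

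Replicate numbers do not pair the libraries in the labels, and replicate differences correlated between groups at -0.0041 to 0.019 over 15397 genes. With a replicate block 6 members were lower and 0 higher (7.69% of members and 5.27% of all genes lower), and 0 were called in the IL-5 comparisons or their difference.

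Of the 22 genes called lower, 5 turned positive with coding length offsets (Mrpl33 0.48, Mrpl36 0.25, Mrps21 0.18, Mrps16 0.12 and Mrpl34 0.0059) and 6 with transcript length offsets, none past the threshold. Among genes that were not called, Mrps18a turned to 0.32, 0.41 and 0.74 with coding length offsets, library size only and transcript length offsets, and Mrpl12 to 0.036 with library size only. Mrpl3 turned to -0.056 in the IL-5 groups, -0.25 with transcript length offsets, and ranged from -0.17 to 0.72 in leave-one-out fits, where it was also -0.043 and -0.019. Mrps15 turned to -0.25 in the PBS groups, -0.031 with the filter of 5 CPM, and ranged from -0.18 to 0.25 in leave-one-out fits, where it was also -0.16 and -0.077.

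After IL-5 in microglia, leaving out 1 library gave 0 to 12 higher, 0 to 1 lower and medians of -0.21 to 0.19. In T cells DESeq2 called 1 higher, and leave-one-out medians were -0.065 to 0.11. The median of the difference was -0.023 with transcript length offsets and -0.33 to 0.11 in leave-one-out fits, with 0 to 1 called in each direction. The cause of these shifts was not tested. With 2 libraries a group, leaving 1 out assumes that the lone library varies like the other groups.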
